A study of Mus musculus with 20 samples.

Results

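The genes described here are 6 markers of the alveolar type I cell: Ager, Hopx, Rtkn2, Pdpn, Cav1 and Emp2. They were chosen by name, as all probe sets whose only gene symbol is one of the 6, and all 6 were on the array, out of 12393 genes with a single-gene probe set. Between them they had 9 probe sets: 3 for Emp2, 2 for Hopx and 1 for each of the other genes. Each gene is described by its brightest probe set, and the remaining probe sets are given beside it.

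The alveolar type I cell is the very thin, wide epithelial cell that forms most of the gas exchange surface of the lung. It lies against the capillary endothelium and arises late in gestation from the distal epithelium, which also gives the surfactant-producing type II cell. Fetal glucocorticoids drive the final maturation of the lung before birth. The markers differ in what they do. Hopx is a small homeodomain protein that does not bind DNA itself and acts through other transcription regulators. Ager encodes RAGE, a cell surface receptor for advanced glycation end products and S100 proteins that sits on the basolateral membrane of type I cells. Pdpn encodes podoplanin, also called T1alpha, a mucin-like glycoprotein of their apical membrane. Emp2 is a membrane protein with several transmembrane segments, and Cav1 is the main structural protein of caveolae. Rtkn2 is used here as a marker of the type I cell. Some are also made by other cells: Cav1 by blood endothelium, Pdpn by lymphatic endothelium and mesothelium, and Hopx by the heart.

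Messenger RNA was measured in left lung lobes of C57Bl6 mouse embryos on 1-colour arrays, with 1 animal per array and 5 animals in each of 4 groups. Controls, labelled GR flox, carried the floxed glucocorticoid receptor gene (GR, Nr3c1) and were collected at E16.5 or E18.5. Mutants, labelled GRCol1-Cre, were collected at the same stages and lacked GR in mesenchymal cells, through a Cre expressed from a bacterial artificial chromosome with the collagen type I alpha 2 locus. The deletion is described as specific to mesenchymal cells. By that description type I cells are not among its targets, which values of a whole lobe cannot check. The animals are separate embryos, but the labels do not say which shared a litter. The comparisons ask whether loss of GR in the mesenchyme changed these epithelial markers, and how the markers rose over the last days before birth.

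Values are on the log2 scale of the authors' GCRMA processing, so a difference of 1 is a doubling. A value below 4 is called dim. Arrays have no read depth, and it is their number that limits precision. Each array had between 13088 and 13319 probe sets above 4. The targeted gene Nr3c1 was at 8.58 to 9.15 in controls against 6.31 to 7.50 in mutants at the earlier stage. At E18.5 it was at 9.02 to 9.57 against 7.56 to 8.05, so the genotypes overlapped at neither stage. Where its probe set lies relative to the deleted part is not known from the files. By Xist and Y-linked genes, 1 of 5 E16.5 controls and 5 of 5 E16.5 mutants were female, against 3 of 5 E18.5 controls and 2 of 5 E18.5 mutants. Arrays of a group correlated at 0.965 to 0.995. Replicate 3 of the E18.5 controls stood apart from its group in several markers. Counts without it are given where a call between the E18.5 groups changed, and values without it are given for some genes.

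At E18.5 all 6 markers were lower in the mutants than in the controls. By the brightest probe sets the mutants retained 27.0% of the control level of Rtkn2, 52.5% of Emp2, 54.9% of Hopx, 55.0% of Ager, 60.6% of Pdpn and 75.5% of Cav1. The sizes depend on the probe set: the dimmer ones of Emp2 (log2 -1.40 and -1.29) and Hopx (-1.06) fell more than the brightest (-0.93 and -0.87). The other 4 markers had 1 probe set each. All 6 passed the test (limma with Benjamini-Hochberg adjustment over 8068 genes, adjusted p from 4.89e-05 for Pdpn to 0.0124 for Hopx), where 15.9% of all tested genes were called lower. The median difference was -0.86 over the 6 markers and 0.03 over all genes. In 5 of the 6, every mutant lay below every control, which held for 9.13% of all tested genes. In whole lobes, fewer type I cells and less of these RNAs per cell cannot be told apart.

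**Figure D1:**
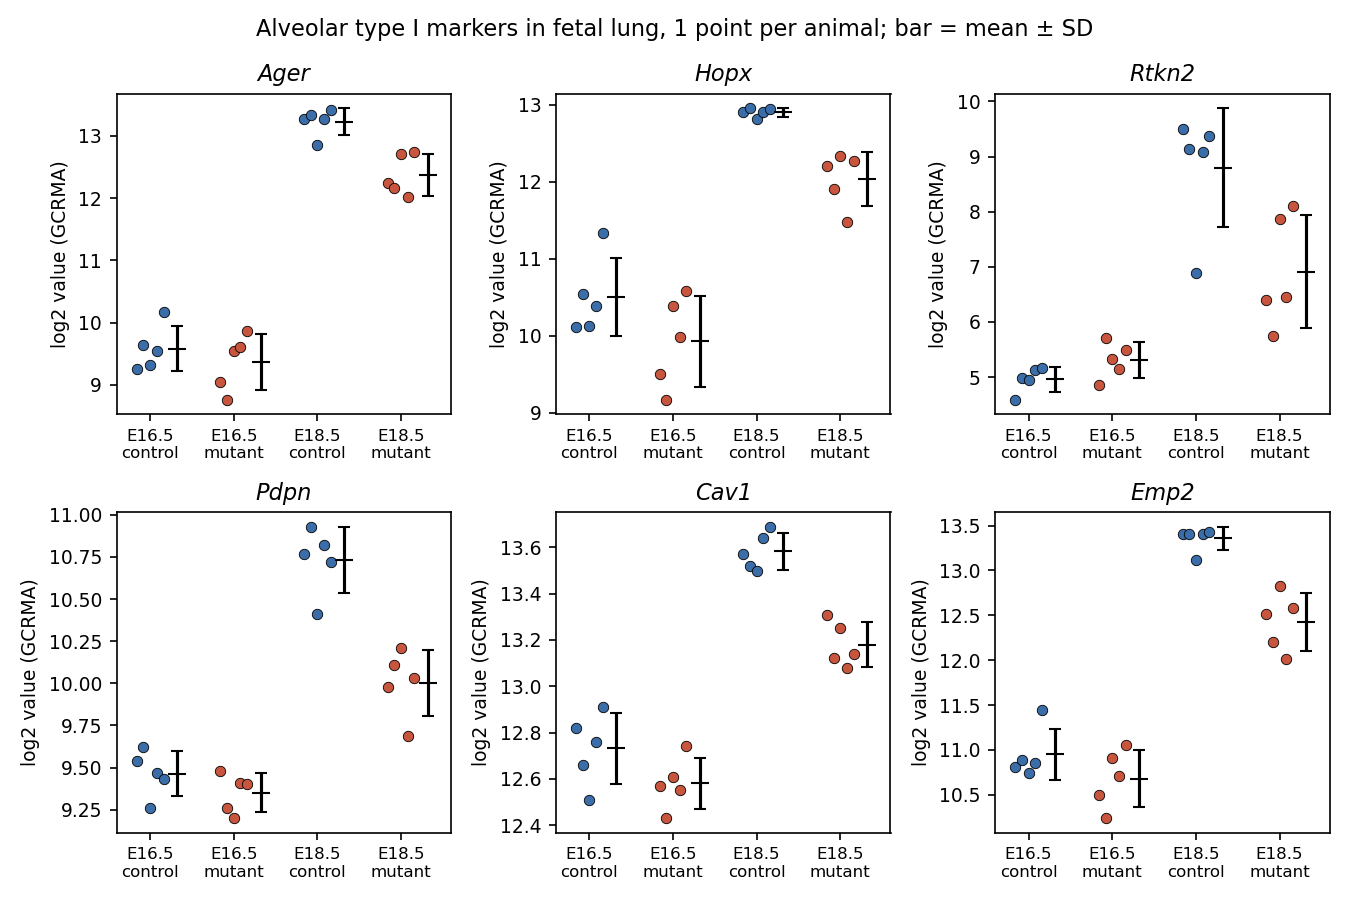
Log2 value (y axis) of the brightest probe set of each marker in the 4 groups (x axis), with 1 point per animal and a bar for the mean ± SD over 5 animals; the y axes differ between panels and do not start at 0. Every marker is higher at E18.5 than at E16.5 in both genotypes, and the 5 E18.5 mutants lie below the 5 E18.5 controls in all panels but Rtkn2, where control replicate 3 reads 6.89.

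Hopx, on chr5:77086986-77115123 (GRCm38.p6), read 12.90, 12.95, 12.81, 12.90 and 12.94 in the E18.5 controls and 12.20, 11.91, 12.33, 11.48 and 12.27 in the E18.5 mutants. The controls were nearly alike (12.90 ± 0.05, SD, n = 5), while the mutants spread more widely (12.04 ± 0.35) and all lay below them. The difference was -0.87 (SE 0.25, 95% interval -1.39 to -0.34, limma adjusted p = 0.0124). Its second probe set read 12.66 ± 0.18 in controls and 11.60 ± 0.30 in mutants (SD, n = 5), a difference of -1.06 (SE 0.28) in a fit of all probe sets.

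Ager lies on chr17:34597460-34600937. It read 13.27, 13.33, 12.86, 13.27 and 13.42 in the E18.5 controls and 12.24, 12.16, 12.71, 12.01 and 12.74 in the E18.5 mutants. All mutants were below all controls, though the highest mutants came within a small distance of control replicate 3. The group means were 13.23 ± 0.21 and 12.37 ± 0.33 (SD, n = 5), and the difference was -0.86 (SE 0.21, 95% interval -1.30 to -0.43, limma adjusted p = 0.00381).

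Pdpn, on chr4:143267409-143299564, had the smallest p-value of the 6. Its values were 10.77, 10.93, 10.41, 10.82 and 10.72 in the E18.5 controls and 9.98, 10.11, 10.21, 9.69 and 10.03 in the E18.5 mutants. Both groups had a similar spread and did not overlap. The control mean was 10.73 ± 0.19 (SD, n = 5), and the difference was -0.72 (SE 0.10, 95% interval -0.94 to -0.51, limma adjusted p = 4.89e-05).

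Emp2 (chr16:10281749-10313968) read 13.41, 13.41, 13.12, 13.41 and 13.43 in the E18.5 controls and 12.51, 12.20, 12.83, 12.01 and 12.58 in the E18.5 mutants. Apart from control replicate 3 the controls were almost identical, and all mutants lay below all controls. The difference was -0.93 (SE 0.17, 95% interval -1.28 to -0.58, limma adjusted p = 0.000382). The other 2 probe sets of Emp2 gave differences of -1.40 (SE 0.22) and -1.29 (SE 0.20), more negative than that of the brightest one. They read 10.55 ± 0.23 and 10.83 ± 0.27 in the E18.5 controls (SD, n = 5).

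Cav1, on chr6:17306335-17341328, differed least. It read 13.57, 13.52, 13.50, 13.64 and 13.69 in the E18.5 controls and 13.31, 13.12, 13.25, 13.08 and 13.14 in the E18.5 mutants. Both groups were tight (13.58 ± 0.08 and 13.18 ± 0.10, SD, n = 5) and separate. The difference was -0.41 (SE 0.08, 95% interval -0.57 to -0.24, limma adjusted p = 0.000618).

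Rtkn2, on chr10:67979566-68058429, differed most and also varied most between animals. It read 9.50, 9.13, 6.89, 9.09 and 9.38 in the E18.5 controls and 6.39, 5.75, 7.86, 6.46 and 8.11 in the E18.5 mutants. Control replicate 3 lay among the mutants, so that only 3 of 5 mutants were below all controls. The means were 8.80 ± 1.08 and 6.91 ± 1.02 (SD, n = 5), and the difference was -1.89 (SE 0.45, 95% interval -2.83 to -0.94, limma adjusted p = 0.00360). Without control replicate 3 the difference was -2.36 (SE 0.35), and the adjusted p over all 20 fits that leave out 1 array was 5.34e-05 to 0.0133.

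All 6 markers kept their calls at E18.5 whichever single array was left out. In each of the 5 E18.5 mutants all 6 markers were below the control mean, and this also held for control replicate 3. That animal lay at -1.91 from the control mean in Rtkn2 but at -0.09 in Hopx and -0.08 in Cav1, as the plot of each E18.5 animal shows. The mutants were not shifted by one common amount. Mutant replicates 3 and 5 were the highest mutants in Ager and Rtkn2, whereas mutant replicate 4 was the lowest in Ager, Hopx, Pdpn, Cav1 and Emp2.

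**Figure D2:**
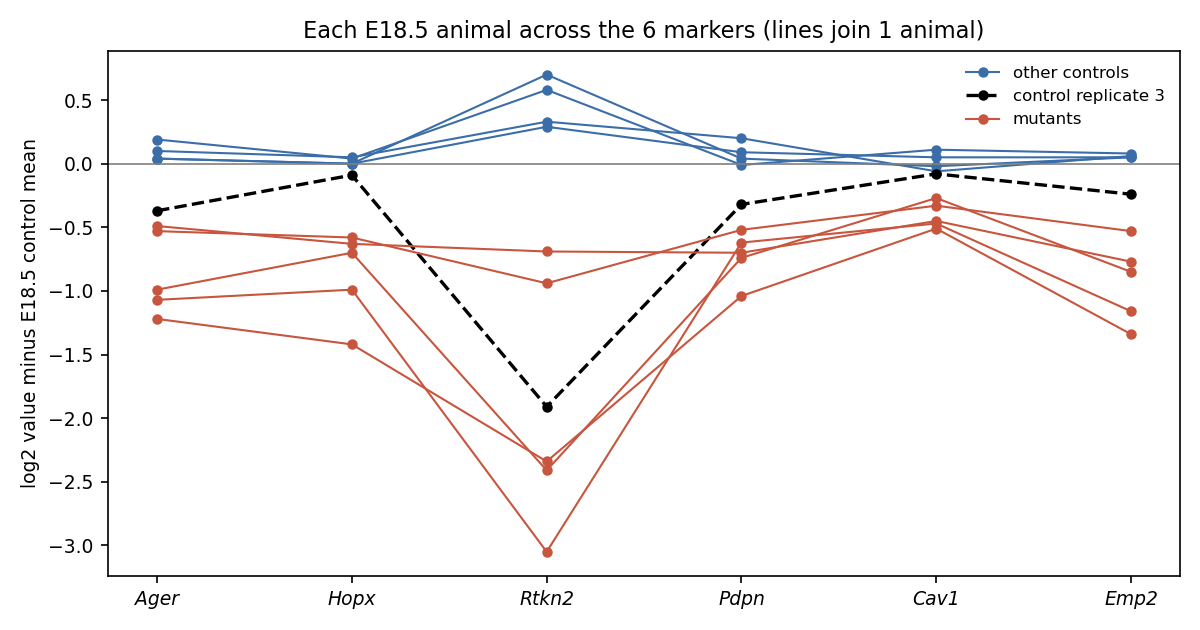
Log2 value minus the mean of the 5 E18.5 controls (y axis) for the 6 markers (x axis), with a line joining the values of 1 animal; red lines are mutants, blue lines are controls and the dashed black line is control replicate 3. Control replicate 3 lies at -1.91 in Rtkn2, lower than mutant replicates 3 and 5 at -0.94 and -0.69, and above every mutant in the other 5 markers.

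At E16.5 no marker passed the test: limma with adjustment over all genes called 0 of 6, against 0.248% of all genes. An unadjusted p under 0.05 was found in 1 of 6 (Hopx, lower) and in 356 of the 8068 tested genes, in either direction. Differences were negative in 5 of the 6, with a median of -0.19 against 0.01 over all genes. Hopx read 10.12, 10.54, 10.13, 10.38 and 11.34 in the E16.5 controls and 9.50, 9.17, 10.39, 9.99 and 10.58 in the E16.5 mutants. Replicate 5 was the highest of each group, and the groups overlapped. The difference was -0.58 (SE 0.25, 95% interval -1.10 to -0.05, limma adjusted p = 0.980), and it was -0.37 (SE 0.23) without control replicate 5. The second probe set of Hopx differed by -0.62 (SE 0.28).

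The remaining markers differed little at E16.5. Ager read 9.25, 9.64, 9.31, 9.54 and 10.17 in controls and 9.04, 8.76, 9.54, 9.60 and 9.86 in mutants, a difference of -0.22 (95% interval -0.66 to 0.21). Emp2 read 10.81, 10.89, 10.74, 10.86 and 11.45 in controls and 10.50, 10.24, 10.91, 10.71 and 11.05 in mutants, a difference of -0.27 (95% interval -0.61 to 0.08). Its other 2 probe sets differed by -0.30 (SE 0.22) and -0.35 (SE 0.20). In Ager, Hopx and Emp2 the same control animal, replicate 5, was the highest, and it was also the only female among the E16.5 controls. Cav1 was at 12.73 ± 0.15 in controls and 12.58 ± 0.11 in mutants (SD, n = 5), with a difference of -0.15 (95% interval -0.31 to 0.01). Pdpn was at 9.46 ± 0.14 and 9.35 ± 0.12, with a difference of -0.11 (95% interval -0.33 to 0.10).

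Rtkn2 was the exception in sign at E16.5. It read 4.59, 4.99, 4.95, 5.13 and 5.16 in controls and 4.85, 5.70, 5.32, 5.15 and 5.50 in mutants, close to the dim range. Of the mutants 3 of 5 were above all controls, but the difference of 0.34 (95% interval -0.61 to 1.28) did not pass. For Ager, Emp2, Cav1, Pdpn and Rtkn2 the limma adjusted p at E16.5 was 1.00. At this stage 4 of 5 controls were male and 5 of 5 mutants female, and with sex as a covariate 0 of 6 markers were called as well.

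Normal development raised all 6 markers steeply. From E16.5 to E18.5 the controls rose 14.3-fold in Rtkn2 (log2 3.84, SE 0.45) and 12.5-fold in Ager (3.65, SE 0.21). Rtkn2 started close to the dim range in both genotypes, so the size of its rise is uncertain. Emp2 rose 5.30-fold (2.41, SE 0.17) and Hopx 5.27-fold (2.40, SE 0.25), while Pdpn rose 2.40-fold (1.26, SE 0.10) and Cav1 1.80-fold (0.85, SE 0.08). The other 2 probe sets of Emp2 rose more, by 3.15 (SE 0.22) and 3.06 (SE 0.20) on the log2 scale. So did the second of Hopx, by 2.88 (SE 0.28). All 6 markers were called higher (limma adjusted p 2.38e-10 to 4.38e-07), against 35.3% of all tested genes called higher and 35.5% called lower. In each marker every E18.5 control was above every E16.5 control, which held for 25.9% of all genes. The median rise was 2.40 over the 6 markers and -0.01 over all genes.

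The markers rose in the mutants too. Ager rose 8.05-fold (log2 3.01, SE 0.21), Hopx 4.32-fold (2.11, SE 0.25), Emp2 3.35-fold (1.74, SE 0.17) and Rtkn2 3.05-fold (1.61, SE 0.45). Pdpn rose 1.57-fold (0.65, SE 0.10) and Cav1 1.51-fold (0.60, SE 0.08). The other 2 probe sets of Emp2 rose by 2.05 (SE 0.22) and 2.12 (SE 0.20) on the log2 scale, and the second of Hopx by 2.43 (SE 0.28). All 6 markers passed (limma adjusted p 1.07e-08 to 0.00532), against 28.7% of all genes called higher and 27.6% lower. In each marker all 5 E18.5 mutants were above all 5 E16.5 mutants, as in 22.1% of all genes. In each of the 6, all 5 E18.5 mutants were also above all 5 E16.5 controls, which was not counted over all genes. The narrowest such gaps were in Pdpn, where the lowest E18.5 mutant read 9.69 and the highest E16.5 control 9.62, and in Hopx, with 11.48 and 11.34.

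The order of the group levels was thus the same in 5 markers: E16.5 mutants lowest, then E16.5 controls, E18.5 mutants and E18.5 controls. In Rtkn2 the E16.5 groups had the opposite order. The 2 E16.5 groups overlapped in every marker and did not differ by the test. All other neighbours in that order were separate in all animals, except for the E18.5 groups of Rtkn2.

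**Figure D3:**
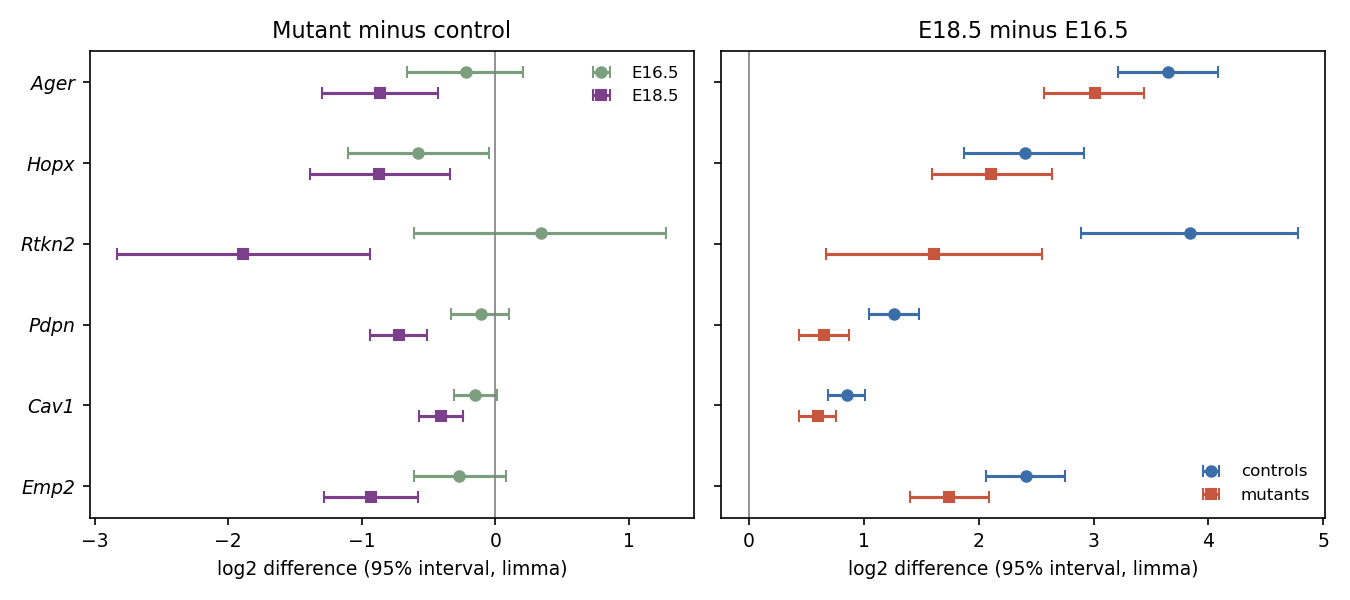
Log2 differences (x axis) with 95% limma intervals for the 6 markers (y axis): mutant minus control at each stage on the left, and E18.5 minus E16.5 in each genotype on the right, each from 5 animals per group. At E18.5 all 6 mutant differences lie below 0, from -1.89 in Rtkn2 to -0.41 in Cav1, while at E16.5 only the interval of Hopx leaves out 0, and the rises lie above 0 in both genotypes.

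Whether the mutant effect differed between the stages was tested directly, as the difference of the 2 mutant effects, which equals the difference between the rises in mutants and controls. It was negative in all 6 markers and was called in 2, Rtkn2 and Pdpn, where 4.78% of all genes were called in this direction and 3.62% in the opposite one. Pdpn had an effect more negative by 0.61 at E18.5 (-0.61, SE 0.15, 95% interval -0.92 to -0.31, limma adjusted p = 0.0158) and kept this call without any 1 array. In Rtkn2 the difference was -2.23 (SE 0.64, 95% interval -3.56 to -0.89, limma adjusted p = 0.0387). Rtkn2 read only 4.59 to 5.70 at E16.5, close to the dim range, so the size of its effect at that stage, and of this difference, is uncertain. The Rtkn2 call was lost in 15 of the 20 fits that leave out 1 array, with adjusted p from 0.00112 to 0.0777 and values from -2.70 to -1.93. It held without E16.5 control replicate 5, E18.5 control replicate 3, E16.5 mutant replicate 1, or E18.5 mutant replicates 3 or 5. With sex as a covariate the value was -2.18 and the adjusted p was 0.111, within a range of 0.00077 to 0.111 over 10 other settings that keep all arrays.

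The test of the stages did not pass in the other markers. Emp2 was at -0.66 (SE 0.23, 95% interval -1.15 to -0.17, limma adjusted p = 0.0846). One of its other probe sets passed, at -1.10 (SE 0.32, adjusted p = 0.0420 over all probe sets), and the third did not, at -0.94 (SE 0.29, adjusted p = 0.0534). The brightest probe set of Emp2 passed in 4 of the 20 fits that leave out 1 array: those without E16.5 control replicate 5, E18.5 control replicate 3, E16.5 mutant replicate 2 or E18.5 mutant replicate 3 (adjusted p 0.0274 to 0.160 over the 20). Ager was at -0.64 (95% interval -1.25 to -0.02, adjusted p = 0.183), Cav1 at -0.25 (95% interval -0.48 to -0.03, adjusted p = 0.151) and Hopx at -0.29 (95% interval -1.03 to 0.46, adjusted p = 0.664), all by limma. The second probe set of Hopx did not pass either, at -0.44 (SE 0.39).

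The list of other type I cell genes, which does not hold the 6 markers, had 32 tested members. At E18.5 22 of 32 were lower and 1 was higher in the mutants, against 15.9% and 18.6% of all genes. The median of the 32 was -0.75, against 0.03 over all genes. Without E18.5 control replicate 3, 23 of 32 were lower. Some of the listed genes were known from earlier results of these data when the list was written, so the list is not independent evidence of the direction. Among the falls were those of Col4a3, a chain of the collagen IV network that type I cells lay down beside the capillary (-2.91, SE 0.43, limma adjusted p = 6.56e-05), the sodium channel subunit Scnn1a (-2.85, SE 0.41) and the testican proteoglycan Spock2 (-2.57, SE 0.43). In the E18.5 mutants Col4a3 was dim on 2 of 5 arrays and Scnn1a on 3 of 5, so the sizes of these 2 falls are uncertain. Both were also dim on all E16.5 arrays. The E18.5 controls, where they are high, alone gave them the 5 arrays above 4 needed for testing. Their calls, counted in the 22, are thus not independent of that filter. The water channel Aqp5 fell by 1.89 on the log2 scale (SE 0.33) and the sodium channel subunit Scnn1g fell by 1.58 (SE 0.28). Igfbp2, a binding protein of insulin-like growth factors, rose by 1.69 (SE 0.32).

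Several of these genes were dim at E16.5. Mean Col4a3 in controls was 2.33 at E16.5 and 7.22 at E18.5, but 4.31 in E18.5 mutants. Scnn1a went from 2.28 to 6.87 in controls and was at 4.03 in E18.5 mutants. Aqp5 went from 2.23 to 8.95 and was at 7.06. For these genes all 10 E16.5 arrays were dim, so the sizes of their rises are uncertain and no mutant effect at E16.5 could be measured. Igfbp2 ran the other way: its control mean was 10.82 at the earlier stage and 7.98 at the later one, where the mutants had 9.67.

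Not every type I gene was lower at E18.5. The tight junction genes Cldn18 (-0.02, SE 0.13) and Cldn4 (-0.08, SE 0.18), the laminin chain Lamb3 (-0.01, SE 0.16) and the prion protein gene Prnp (-0.01, SE 0.09) differed by less than their errors. These were picked from the list after their values were seen. At E16.5 limma called 0 of 32, against 0.248% of all genes, and the median was -0.12. An unadjusted p under 0.05 was found in 4 of 32, all lower, and in 356 of the 8068 tested genes, in either direction. The difference between the stages was called in 14 of 32 toward a more negative effect at E18.5, but 7 of the 14, Col4a3, Scnn1a, Spock2 and Aqp5 among them, had dim E16.5 means in both genotypes, and for these it restates the difference at E18.5. It was called in 1 of 32, Igfbp2, toward a more positive effect. Of all genes 4.78% were called in the first direction and 3.62% in the second. With sex as a covariate the counts of the 32 were 5 and 0, and at an adjusted p under 0.01 they were 1 and 0. In control development 29 of 32 rose and 1 fell, against 35.3% and 35.5% of all genes. In the mutants 28 rose and 1 fell, against 28.7% and 27.6% of all genes.

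**Figure D4:**
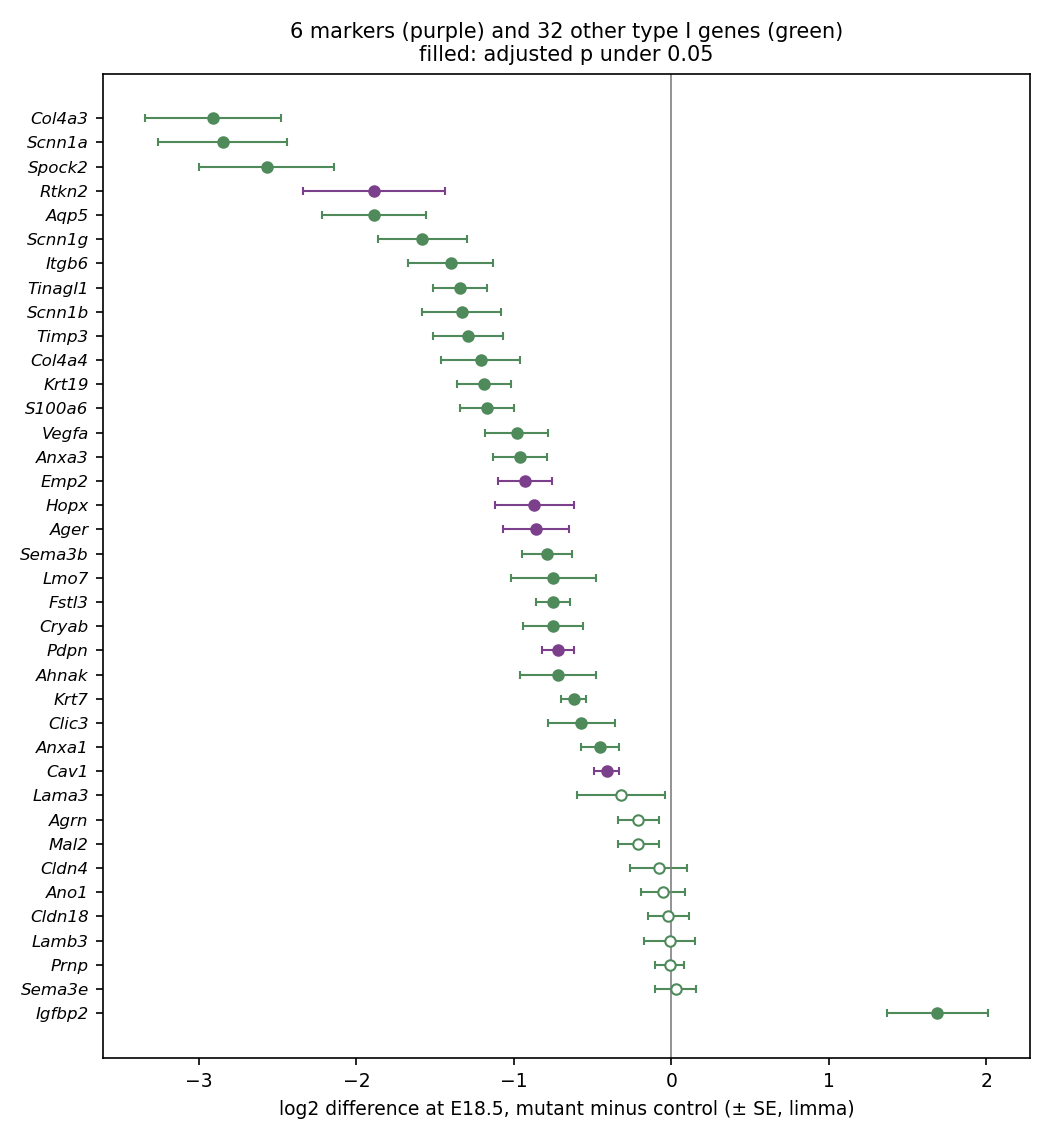
Log2 difference at E18.5, mutant minus control, with its limma SE (x axis), for the 6 markers in purple and the 32 other tested type I genes in green (y axis, ordered by the difference); filled points have an adjusted p under 0.05. Of the 32, 22 are filled and below 0, and Igfbp2 alone is filled and above 0, at 1.69.

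Genes of the caveola coat were lower too, where 15.9% of all genes were called lower at E18.5. At E18.5 all 5 tested genes of this list were lower (median -0.64): Cav2, the partner of caveolin-1 (-0.81, SE 0.15), the coat proteins Cavin2 (-0.69, SE 0.09), Cavin1 (-0.44, SE 0.12) and Cavin3 (-0.28, SE 0.10), and the ATPase Ehd2 (-0.64, SE 0.08). Without E18.5 control replicate 3 the call of Cavin3 was lost and 4 of 5 were lower. At E16.5 limma called 0 of 5, with 0 at an unadjusted p under 0.05, and the median was -0.08. In controls 5 of 5 rose from E16.5 to E18.5, and in mutants 4 of 5 did, against 35.3% and 28.7% of all genes.

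Because the lobe holds many cell types, the markers of other cells that share these genes were measured beside them. Their counts at E18.5 stand beside the 15.9% of all genes called lower. Blood endothelial genes, which bear on Cav1, were lower at E18.5 in 9 of 12 (median -0.48), led by Robo4 (-0.75, SE 0.14). Without E18.5 control replicate 3, 10 of 12 were lower. The log2 of their summed level was 13.86 to 14.11 in E18.5 controls and 13.36 to 13.64 in E18.5 mutants, so these groups did not overlap either. Lymphatic genes, which bear on Pdpn, were lower in 2 of 3, with Lyve1 at -1.12 (SE 0.14), and at -1.24 (SE 0.13) without E18.5 control replicate 3. Their summed level was 10.95 to 11.60 in E18.5 controls and 10.18 to 10.64 in mutants, and the lymphatic regulator Prox1 was dim on all arrays. The sum averaged 11.42 and 10.38 in these groups and Lyve1 alone 11.26 and 10.14, so it mostly restates Lyve1. Mesothelial genes were lower in 3 of 3, with mesothelin, Msln, at -1.70 (SE 0.63). Their summed level was 11.49 to 11.62 in E18.5 controls and 9.88 to 10.70 in mutants, and Wt1 was dim on all arrays. The part of these cells in the changes of Cav1 and Pdpn was not tested.

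Genes shared by the whole lung epithelium did not fall together. Of 9 tested genes 2 were higher and 1 was lower at E18.5 (median -0.03), against 18.6% and 15.9% of all genes. The adhesion molecule Epcam rose by 0.85 (SE 0.16) and the keratin Krt8 fell by 0.48 (SE 0.13). The log2 of their summed level was 14.18 to 14.44 in E18.5 controls and 14.10 to 14.28 in mutants, with overlap. Nkx2-1, which defines the lung epithelium, was dim on all arrays with its probe set. Every array was also expressed relative to its own mean over these 9 genes, a scaling chosen after seeing the data. All 6 markers were called lower at E18.5, with differences of -1.90 in Rtkn2, -0.94 in Emp2, -0.88 in Hopx, -0.87 in Ager, -0.73 in Pdpn and -0.42 in Cav1. Because the 9 genes had a median difference of only -0.03 at E18.5, this scaling could move the markers little and is no separate test.

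Type II cell genes, the sister lineage, had 1 of 13 lower and 1 higher at E18.5 (median -0.34), against 15.9% and 18.6% of all genes. Lysozyme, Lyz2, which macrophages make too, was at -1.24 (SE 0.32), and the transcription factor Etv5 was at 0.59 (SE 0.14). Their summed level was 16.41 to 16.74 in E18.5 controls and 16.05 to 16.55 in mutants. Of the 13, 11 had a negative sign. The surfactant genes, given after their values were seen, were at -1.23 in Sftpd (SE 0.48, limma adjusted p = 0.0517), -0.46 in Sftpb (SE 0.31), -0.41 in Sftpa1 (SE 0.36) and -0.04 in Sftpc (SE 0.07). Without E18.5 control replicate 3, Sftpd passed too, and 2 of 13 were lower. Genes of the distal tip, the progenitor zone from which both alveolar lineages arise, were higher in 4 of 6 (median 0.66), led by the transcription factor Sox9 (1.30, SE 0.24). The summed level of the tip genes was 13.67 to 13.89 in E18.5 controls and 14.03 to 14.42 in mutants, while Etv4 and Shh were dim on all arrays.

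The other lists moved less uniformly at E18.5. Airway club and ciliated genes were lower in 3 of 8 (median -0.46), with the secretory gene Scgb3a1 at -2.66 (SE 0.71). Scgb3a1 was dim on all E16.5 arrays and on 1 of 5 E18.5 mutant arrays, so the E18.5 controls alone brought it past the filter. Without E18.5 control replicate 3 it was at -3.18 (SE 0.68), and 4 of 8 were lower. Mesenchymal genes, from the compartment that lost GR, were lower in 2 of 10 (median -0.09), with the lung fibroblast regulator Tcf21 at -0.75 (SE 0.09). Cardiac genes were higher in 1 of 7, the myosin light chain Myl2. It was dim on all E16.5 arrays and on 4 of 5 E18.5 control arrays. In E18.5 mutants, the group that alone brought it past the filter, it averaged 4.69. Of the 7 cardiac genes, 6 had a negative sign (median -0.33). Their summed level, which bears on Hopx, was 12.62 to 13.04 in E18.5 controls and 12.23 to 12.67 in mutants, and Nppa was dim on all arrays. Erythroid genes were lower in 2 of 3 (median -1.73), with embryonic globin Hbb-y at -2.06 (SE 0.66). Without E18.5 control replicate 3, which was high in these genes, Hbb-y was at -1.31 (SE 0.48), the median was -0.84, and 2 of 3 were still lower. These counts stand beside the 15.9% of all genes called lower and 18.6% called higher, and the part of these cells in the changes of the markers was not tested.

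Animals of one group that were high in one marker tended to be high in some others. Over the deviations of the 20 arrays from their group means, Pearson's r was 0.938 between Hopx and Emp2, 0.930 between Ager and Emp2 and 0.911 between Ager and Hopx. It was lower for pairs with Rtkn2 or Pdpn, down to 0.183 between Rtkn2 and Cav1, and the median over 15 pairs was 0.488. With the mean of the pan-epithelial genes r was 0.706 for Hopx, 0.497 for Emp2, 0.457 for Cav1, 0.447 for Ager, -0.322 for Rtkn2 and -0.376 for Pdpn. With the mean of the blood endothelial genes it was 0.753 for Emp2, 0.736 for Cav1, 0.626 for Hopx, 0.617 for Ager, 0.509 for Rtkn2 and 0.246 for Pdpn. These values describe 20 arrays in which all genes of an animal share 1 hybridization.

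The genes with the most similar pattern were sought among the 8062 other tested genes, by Pearson's r over the 20 values. For Ager they were Ier3, Icam1 and Elmo3 (0.995 each). For Emp2 they were Cd9 (0.995), Tmbim1 (0.994) and Serping1 (0.993), and for Hopx they were Tst (0.994), Ctsh (0.994) and Lgals3 (0.993). Cav1 was most like Mef2a (0.989), Krt7 (0.987) and Hpcal1 (0.985), Pdpn most like Icam2 (0.980), Ppp1r2 (0.979) and Elovl1 (0.978), and Rtkn2 most like Slc31a1 (0.976), Atp6v1b2 (0.975) and Car4 (0.975). These values are over all 20 arrays, both stages included.

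With the group means removed, the nearest genes changed in part. Hopx was then most like Cd9 (0.962), Ctsh (0.956) and the surfactant gene Sftpa1 (0.953). Ager was most like Gimap4 (0.958), the surfactant lipid transporter Abca3 (0.946) and Selenbp1 (0.945), and Emp2 was most like Selenbp1 (0.940), Ctsh (0.934) and Lgals3 (0.933). For Rtkn2 the nearest were Plscr2 (0.933), Car4 (0.933) and Slc22a19 (0.926), and for Cav1 they were Acsl5 (0.926), Tmem63b (0.901) and Mef2a (0.873). Pdpn had the least similar neighbours, Mafk (0.843), Ift20 (0.807) and Hagh (0.781).

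The promoters of the markers were searched for recognition letters of GR and of factors known in type I cells. RefSeq promoter sequences (GRCm38.p6) were held for 5 of the 6 markers, and the 250 bases before each listed start site were read, 5′ to 3′ on the strand of the gene. The start site listed for Ager lies inside the span given for the gene above, downstream of its first base. Those of Emp2, Hopx (its first start site) and Ager are shown as the markers with the largest falls at E18.5 among those with an entry. That of Cav1 was added after its match was seen, and capitals mark that match.

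Cav1, chr6:17306085-17306334, plus strand: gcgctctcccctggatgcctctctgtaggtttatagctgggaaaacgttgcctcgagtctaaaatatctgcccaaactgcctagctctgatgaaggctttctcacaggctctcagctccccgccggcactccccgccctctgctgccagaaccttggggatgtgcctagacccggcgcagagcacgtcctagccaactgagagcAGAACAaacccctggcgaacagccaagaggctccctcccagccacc
Emp2, chr16:10313969-10314218, minus strand: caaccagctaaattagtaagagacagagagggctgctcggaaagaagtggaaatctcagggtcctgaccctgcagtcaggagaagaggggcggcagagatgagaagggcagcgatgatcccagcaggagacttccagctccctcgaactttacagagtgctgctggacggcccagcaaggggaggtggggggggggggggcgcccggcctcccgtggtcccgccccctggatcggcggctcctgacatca
Hopx, chr5:77115124-77115373, minus strand: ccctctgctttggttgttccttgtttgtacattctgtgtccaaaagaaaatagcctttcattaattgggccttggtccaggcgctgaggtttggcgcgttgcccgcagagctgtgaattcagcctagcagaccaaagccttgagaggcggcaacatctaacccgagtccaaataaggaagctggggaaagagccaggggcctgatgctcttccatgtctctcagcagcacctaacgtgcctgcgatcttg
Ager, chr17:34597600-34597849, plus strand: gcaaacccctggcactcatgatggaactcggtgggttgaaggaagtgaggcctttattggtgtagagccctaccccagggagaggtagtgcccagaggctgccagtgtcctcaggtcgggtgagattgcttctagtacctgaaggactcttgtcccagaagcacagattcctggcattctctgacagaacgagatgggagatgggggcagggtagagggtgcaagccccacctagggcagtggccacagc

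The match in Cav1 is the glucocorticoid receptor half-site AGAACA, whose last base lies 41 bases before the start. This half-site, searched on both strands, was in 16.1% of 32851 promoter windows of the same length. The full palindromic glucocorticoid response element, which contains the half-site on both strands, was in 3 of the 32851 windows and in none of the 5 searched markers, Rtkn2 having no entry. No match was found in the windows of Ager, Hopx, Pdpn, Emp2 or the second start site of Cav1 to the half-site, to the letters GGAATG bound by TEAD factors (12.6% of windows), to the AP-1 letters TGANTCA (6.75%) or to the NKX2-1 letters TCAAGTG (2.68%). A match is only a match of letters, and its absence says only that these letters are not in this window.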

How the data were processed

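Left lung lobe RNA of 20 embryos, 5 in each of 4 groups by sample title, was hybridized to arrays, 1 animal each. Values are the authors' deposited log2 signals from GCRMA, named without a version in the submitters' processing notes. Of 22690 probe sets, 20380 name 1 gene. For each of 12393 genes the brightest such probe set was taken, and the 8068 genes above a log2 value of 4 in at least 5 arrays were tested. The 4 group means were fitted together with limma 3.58.1 (lmFit, eBayes; R 4.3.3), two-sided, and genes with a Benjamini-Hochberg adjusted p under 0.05 were called. A fit of all 12517 probe sets above the same filter served the remaining probe sets. Simulated data with known changes were used to test the code.

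The markers, the 14 other gene lists (160 entries, 139 on the array), the motifs and the tests were chosen with earlier results of these data known. The summed level of a list is the log2 of the sum of its tested genes on the linear scale. Errors are SDs over 5 animals or limma SEs. Named genes were all 6 markers, from the other type I genes the 5 largest called falls and 3 largest called rises at E18.5 (1 was called higher) and any called at E16.5 (none), from each further list the called gene with the largest change in each direction, and the 3 genes most like each marker. A value was given for a list with none called, and names outside the rule are marked, except in the lists of caveola, Hippo and RAGE ligand genes, which are given more fully. Promoters shown were those of the 3 markers with the largest falls among those with an entry, and Cav1 was added after its match was seen. Sex was read from Xist against Y-linked genes. Alternatives covered the filter, normalization, centring, probe sets, arrays in the fit, variance model, array weights, replicate number, sex, threshold, each array in turn and a pan-epithelial scaling. Figures were drawn with matplotlib 3.10.9 (Python 3.11.15).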

Additional observations from a re-analysis of the deposited data

Results flagged for a closer look

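Animals that stood apart from the other 4 of their group were looked for in 96 groups of values, the 9 marker probe sets and the summed levels of all lists, and 17 were found. A group was noted when the gap of its highest or lowest animal to the next was more than 0.71 of the group's range. Chance gives this in about 1 in 20 groups.

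Of the 17, 13 were E18.5 control replicate 3. It read 6.89 in Rtkn2 (others 9.09 to 9.50), 12.86 in Ager (others 13.27 to 13.42), 13.12 and 10.37 in 2 probe sets of Emp2 (others 13.41 to 13.43 and at least 10.86) and 12.34 in the second probe set of Hopx (others 12.68 to 12.80). Its summed levels were low in the 6 markers (15.16), other type I genes (15.84), caveola coat (14.09), Hippo pathway (12.94), type II genes (16.41), club and ciliated genes (15.03) and lymphatic genes (10.95), and high in erythroid genes (12.96, others 11.13 to 11.64).

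E16.5 control replicate 5, the only female E16.5 control, was high in the brightest probe set of Emp2 (11.45, others 10.74 to 10.89), in other type I genes (14.95, others 14.46 to 14.58) and in pan-epithelial genes (14.19, others 13.87 to 13.95). E16.5 mutant replicate 1 was low in Hippo pathway genes (12.66, others 12.73 to 12.75).

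The mutant effect differed between the stages, by limma's test of that difference, in Rtkn2 (-2.23), which was close to the dim range at E16.5, and Pdpn (-0.61). Among the other type I genes it was called toward a more negative effect in 14 of 32, of which 7 had an E16.5 mean above dim in a genotype. It was called the other way in 1 of 32, Igfbp2 (1.64). The same test gave -2.72 in Scnn1a, -2.61 in Col4a3, -2.26 in Spock2 and -2.02 in Aqp5. All E16.5 arrays of those 4 genes were dim, so no mutant effect was measurable at that stage and their values restate the difference at E18.5.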

How the results depend on the processing

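With 5 animals per group and no technical replicates, the spread between animals sets the precision, and values below 4 on the log2 scale are dim. All 6 markers kept their direction under every alternative run in all comparisons. The calls at E18.5 in the mutants held under every alternative except for Hopx at an adjusted p under 0.01. The call of the rise of Pdpn in mutants was lost relative to the pan-epithelial mean (0.29, adjusted p = 0.0725).

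The difference between the stages depended most on the settings. Of the markers, 2 were called, against 1 without the filter on dim genes, 1 with sex as a covariate, 0 at an adjusted p under 0.01, 5 with array weights and 1 to 3 when 1 array was left out. Other type I genes with a more negative effect at E18.5 numbered 14, against 5 with sex as a covariate, 1 at 0.01 and 10 to 18 without 1 array. Igfbp2, the 1 gene with a more positive effect, was not called (0) without the filter, with sex or at 0.01, and 0 to 1 were called without 1 array. Over all genes this test called 678, against 2244 with array weights, 403 with sex, 166 at 0.01 and 393 to 1445 without 1 array.

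Mutant against control at E16.5 called 20 genes, against 9 with only those arrays, 43 with array weights, 8 with sex, 11 at 0.01 and 13 to 22 without 1 array. At E18.5 it called 2784, against 1645 at 0.01. Control development called 5718 genes, against 8586 probe sets when all were features of their own. Other type I genes that fell in mutant development numbered 1, against 2 relative to the pan-epithelial mean. That scaling moved the median of all genes to -0.28 in control and -0.36 in mutant development, and the share of calls that were higher from 49.9% to 30.6%, from 51.0% to 17.1%, and from 43.1% to 23.7% for the difference between the stages. Signs turned at E16.5 in Scnn1a (0.03 with array weights, 0.10 without control replicate 5, -0.24 to 0.10 without 1 array) and Igfbp2 (-0.01 without control replicate 5, -0.01 to 0.09 without 1 array). The cause of these changes was not tested.

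The labels do not say that a replicate number marks a shared litter or day. Same-numbered animals had correlations of deviations from -0.429 to 0.597, over 0.1 in 15 of 30 pairs. They were best matched to their own number in 25 of 60 cases, against 12 if the numbers carried nothing, so not every animal matched its number, and the data hint at some link without the design giving one. With the replicate number as a block, 2943 genes were called at E18.5 and 17 at E16.5, and all member calls of the text were the same.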

Other observations

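Genes of the Hippo pathway, whose effectors Yap1 and Wwtr1 (TAZ) act through TEAD factors and are known to promote the type I cell fate, were measured too. Of 11 tested genes 4 were lower and 2 were higher in the E18.5 mutants (limma, median -0.37), against 15.9% lower and 18.6% higher over all genes. Without E18.5 control replicate 3, 6 were lower and 2 higher. The transcriptional target Ccn1 fell by 0.88 (SE 0.18), Amotl2 by 0.46 (SE 0.15), Wwtr1 by 0.37 (SE 0.12) and the kinase scaffold Sav1 by 0.26 (SE 0.06). Tead2 rose by 0.86 (SE 0.16) and Yap1 by 0.28 (SE 0.08). In control development 7 of 11 rose and 2 fell, against 35.3% and 35.5% over all genes, with Wwtr1 at 1.31 (SE 0.12) and Tead2 at -1.48 (SE 0.16). Tead1, Lats1 and Stk4 were dim on all arrays. At E16.5 limma called 0 of 11, and 0 had an unadjusted p under 0.05.

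Of 6 listed ligands of RAGE, the receptor that Ager encodes, 3 were tested. S100a9 rose by 4.85 (SE 0.70), S100a8 by 3.50 (SE 0.62) and S100a4 by 1.70 (SE 0.16) from E16.5 to E18.5 in controls, and by 4.45, 3.29 and 1.77 in mutants. S100a9 was dim on 3 of 5 E16.5 arrays of each genotype, so the size of its rise is uncertain. At E18.5 the mutants differed from the controls by -0.37 (SE 0.70), -0.28 (SE 0.62) and 0.03 (SE 0.16), and limma called 0 of 3, with 0 at an unadjusted p under 0.05. S100b was dim on all arrays. Another S100 protein gene, S100a6, stood on the list of other type I genes instead. It was at -1.17 (SE 0.17) at E18.5, mutant minus control, and is named after its value was seen.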
